A study of Homo sapiens with 2 samples.

Results

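The light-strand mitochondrial tRNA genes are the 8 rows of the count table with the biotype of a mitochondrial tRNA and a position on the minus strand. They are MT-TP, MT-TE, MT-TS1, MT-TY, MT-TC, MT-TN, MT-TA and MT-TQ, out of 22 mitochondrial tRNA genes, 37 genes of the mitochondrial chromosome and 61554 rows in all. The rule used the annotation alone and no measured value, but it was set with earlier results of these data known. Their counts were uneven: MT-TE held most of them in both libraries, MT-TP, MT-TC and MT-TA were measured at lower levels, and the other 4 were at or near 0. Among the 4 members with a summed count of at least 100, MT-TE also had the highest ratio between the libraries, at 1.66-fold (95% interval 1.64 to 1.69) with the reporter plasmid over without it.

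The data were 2 ribosome profiling libraries of HEK293T, a line derived from human embryonic kidney, with the genotype WT in the labels. Both cultures, in dishes of 15 cm, received the plasmid of the synthetase TetRS (pCMV-Nes--chPylRSIPYE), which also carries U6-CM15CGA cassettes, listed as 12, and both were grown with TetBu. The culture with the reporter also received pEGFP-mCherry-T2A-EGFP-151TCG, and the other culture did not. Both were expressed for 30 h, kept for 1 min in 0.1 mg/mL cycloheximide (CHX), an inhibitor of cytosolic ribosomes, and sequenced as single reads of 50 nt. The treatment label of the culture without the reporter reads "with without", and its group was taken from its title, RiboWo. Each group had 1 library, and in such bulk RNA fewer cells of a type and less RNA per cell cannot be told apart. All differences below are therefore between these 2 libraries, with no replicate check and no p-value. Intervals are exact at 95% unless stated and cover counting error only. Reads copied by PCR are not independent molecules.

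Both strands of the human mitochondrial genome are transcribed into long precursors. In these, tRNAs lie between the other genes, and they are cut out by mitochondrial RNase P at the 5′ end and by ELAC2 at the 3′ end. TRNT1 then adds the CCA end, and a mitochondrial synthetase charges the tRNA. The precursor of the light strand carries MT-ND6 as its only mRNA, beside the 8 tRNAs. Its transcription starts in the control region, so that MT-TP is the first of these genes to be copied, followed by MT-TE, MT-TS1, MT-TY, MT-TC, MT-TN, MT-TA and MT-TQ. A tRNA is not translated, so a tRNA read in such a library is a fragment that was carried along and not the footprint of a ribosome on a message.

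The members are described in the order of transcription, with coordinates of the mitochondrial chromosome as the files give them. All 37 mitochondrial rows had the start and end of the genes in the RefSeq table of GRCh38.p14. Nuclear rows were not compared with it, and the processing notes list other builds, so the build of the nuclear coordinates was not checked. Levels are the deposited RPKM, counts per length and library size, because they allow genes to be compared within a library.

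MT-TP (15956 to 16023), the tRNA for proline, was counted 5444 times with the reporter and 5616 times without it. Its RPKM was 27861 and 29891. This placed it 6th and 5th of the 22 mitochondrial tRNA genes. Its counts were 0.216% of the first library (0.210 to 0.222%) and 0.178% of the second (0.174 to 0.183%).

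MT-TE (14674 to 14742), the tRNA for glutamate, was counted 47512 times with the reporter and 26044 times without it. Its RPKM was 239632 and 136610. Among all 61554 rows it was the 8th most counted with the reporter and the 12th without it. It took 1.89% of the first library (1.87 to 1.90%) and 0.826% of the second (0.816 to 0.836%). Per length it ranked 2nd of the 22 mitochondrial tRNA genes with the reporter, behind MT-TS2, the other serine tRNA. Without the reporter it ranked 3rd, behind MT-TS2 and MT-TF, the phenylalanine tRNA. The order of MT-TE and MT-TF was thus not the same in the libraries: 689 counts per nt against 588 with the reporter, and 377 against 568 without it. The intervals of each pair did not overlap.

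MT-TS1 (7446 to 7514) and MT-TY (5826 to 5891) were at or near 0. MT-TS1, the serine tRNA that reads the UCN codons and so the mitochondrial reader of the codon family to which TCG belongs, had 0 counts in both libraries. MT-TY, the tRNA for tyrosine, had 5 reads counted with the reporter and 0 without it. The interval of this ratio ran from a log2 value of -0.26 with no upper limit, so 5 counts against 0 did not set the libraries apart.

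MT-TC (5761 to 5826), the tRNA for cysteine, had 1398 counts and 1359 counts. Its RPKM was 7371 with the reporter and 7452 without it, and it ranked 10th of the 22 in both libraries. Its nearest neighbour in that order was MT-TR, the arginine tRNA of the heavy strand. MT-TC was at 21.2 counts per nt (20.1 to 22.3) and MT-TR at 20.0 (18.9 to 21.1) with the reporter. Without it the values were 20.6 (19.5 to 21.7) and 20.0 (18.9 to 21.1). The intervals of these neighbours overlapped in both libraries.

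MT-TA (5587 to 5655), the tRNA for alanine, was counted 249 times with the reporter and 182 times without it, with an RPKM of 1256 and 955. It ranked 14th of the 22 in both libraries. MT-TN (5657 to 5729), the tRNA for asparagine, and MT-TQ (4329 to 4400), the tRNA for glutamine, had 0 counts in both. Along the chromosome, MT-TA, MT-TN, MT-TC and MT-TY lie side by side between MT-TW and MT-CO1. Within this cluster of 4 genes, the order was 249, 0, 1398 and 5 counts with the reporter, so that higher and lower members alternated.

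**Figure D1:**
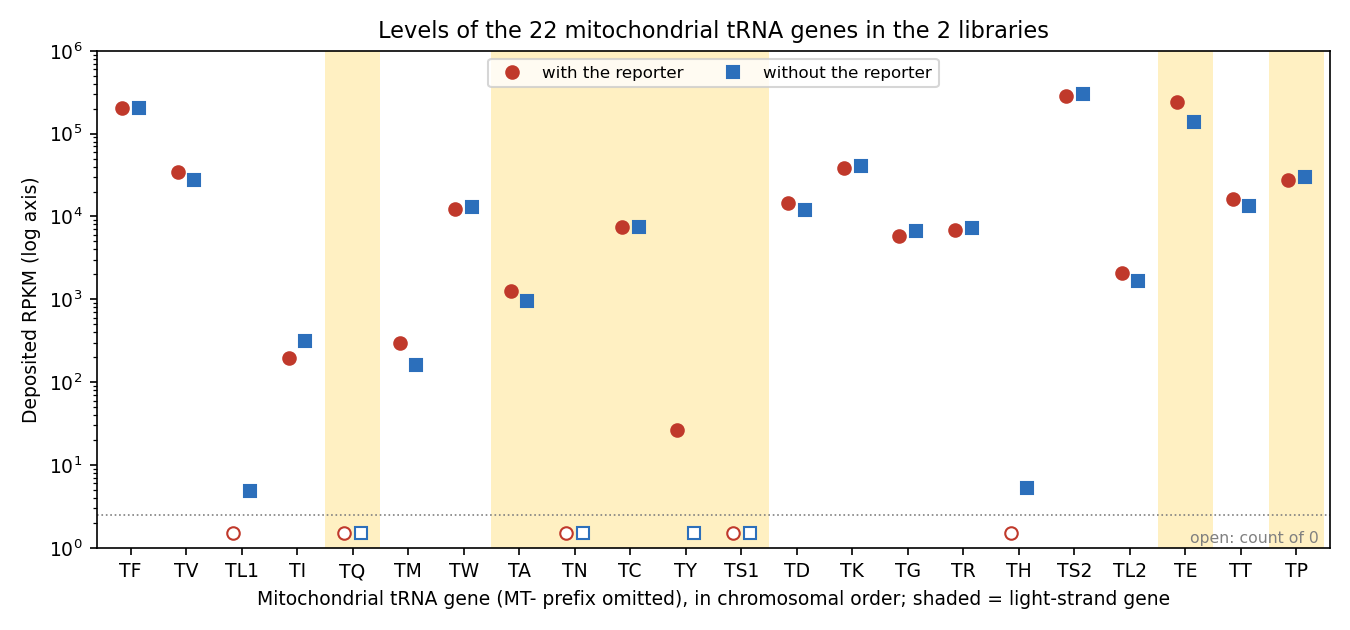
The plot gives the deposited RPKM (log axis) of the 22 mitochondrial tRNA genes in chromosomal order, as circles with the reporter and squares without it; open symbols at the bottom mark a count of 0 and shading marks the 8 light-strand genes. MT-TE reaches 239632 and 136610, while MT-TQ, MT-TN and MT-TS1 are at 0 in both libraries.

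Among the 8 genes, 3 had no count in either library, MT-TQ, MT-TN and MT-TS1, and MT-TY had fewer than 10 in all. A count of 0 was given a floor of 3 counts, where the upper limit of the exact interval is 3.69. The floor is 0.000119% of the library with the reporter and 9.52e-05% of the one without it. With that floor, MT-TE was 16755-fold higher per length than MT-TN with the reporter, and 9185-fold higher without it. The counting error of MT-TE is left out of these values. Against MT-TC, the ratio of MT-TE per length was 32.5 and 18.3, and against MT-TP it was 8.60 and 4.57. The span of levels among the 8 genes was therefore far wider than any difference of 1 gene between the libraries.

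Heavy-strand tRNA genes spanned a similar range. Their RPKM ran from 0 for MT-TL1 and MT-TH to 285474 for MT-TS2 with the reporter, and from 4.83 for MT-TL1 to 301433 for MT-TS2 without it. MT-TL1 and MT-TH had 1 count each in all, and none of the 14 heavy-strand genes had 0 counts in both libraries. Of these 14 genes, 10 reached the summed count of 100 required below for a ratio, as did 4 of the 8 light-strand genes. The median RPKM over the 8 light-strand genes was 641 with the reporter and 477 without it. Over the 14 heavy-strand genes it was 9708 and 9612. The 2 classes had similar gene lengths, with medians of 69 and 68.5 nt.

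The genes around the members at 0 differed in level. MT-TQ overlaps the end of MT-TI, the isoleucine tRNA on the other strand, which had 39 counts and 60 counts. MT-TM, the methionine tRNA on its other side, had 58 and 30. MT-TS1 lies between MT-CO1, with an RPKM of 388 and 505, and MT-TD, the aspartate tRNA, at 14616 and 11997. MT-TN has MT-TA on one side and MT-TC on the other, and MT-TY overlaps MT-TC by 1 base of the annotation. Whether the counting used strand is not stated. Reads of a light-strand tRNA and of heavy-strand precursor RNA across the same stretch could therefore not be told apart.

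Nuclear copies of mitochondrial DNA bear on how such reads are counted, and how multiply matching reads were handled is not stated either. The table listed 402 pseudogenes named after mitochondrial mRNAs, which summed to 771 counts and 911 counts, and 343 of them had no count. Neighbouring pseudogenes of the flanking mRNAs, with a gap within 3 nt of the mitochondrial one, were found for each of the 7 members searched. MT-TP was left out of this search. There were 10 such pairs around MT-TQ, 3 around the cluster of MT-TA, MT-TN, MT-TC and MT-TY, 9 around MT-TS1 and 14 around MT-TE. On chromosome 1, MTND1P23, MTND2P28, MTCO1P12 and MTCO2P12 followed each other in mitochondrial order. Their gaps were 206, 390 and 140 nt, each within the stated 3 nt of the mitochondrial gap. These gaps match the places of all 3 members without a count, but also those of MT-TC and MT-TA, and MT-TE had the largest number of matching pairs. The part of such copies in the counts was not tested.

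The light-strand genes together summed to 54608 counts in the library with the reporter and to 33201 in the other. This was 2.17% of the first library (2.15 to 2.19%) and 1.05% of the second (1.04 to 1.06%). They made up 32.0% of the mitochondrial tRNA counts with the reporter (31.8 to 32.2%) and 22.8% without it (22.6 to 23.0%), a share that does not depend on how the libraries are scaled.

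This difference in share came with MT-TE. MT-TE alone was 27.9% of mitochondrial tRNA counts with the reporter (27.6 to 28.1%) and 17.9% without it (17.7 to 18.1%). Of the light-strand counts, MT-TE held 87.0% and 78.4%, MT-TP 9.97% and 16.9%, MT-TC 2.56% and 4.09%, and MT-TA 0.456% and 0.548%. With MT-TE left out of both sides, which was tried once the values were known, the light-strand share of mitochondrial tRNA counts was 5.77% (5.64 to 5.90%) against 5.98% (5.84 to 6.11%). Those intervals overlap.

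**Figure D2:**
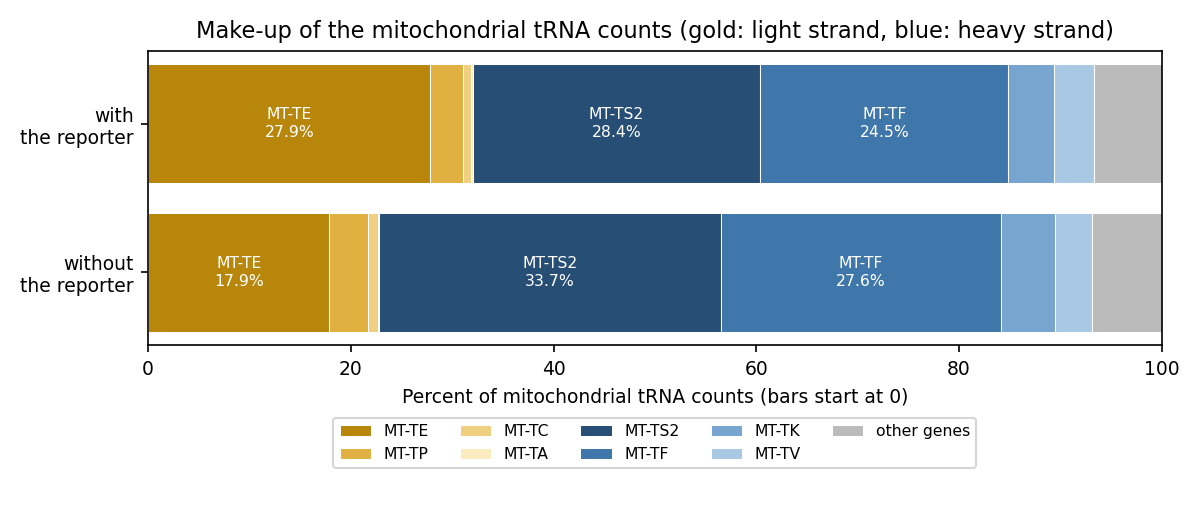
The bars divide the mitochondrial tRNA counts of each library (percent, from 0 to 100) among genes, with light-strand genes in gold, the main heavy-strand genes in blue and the remaining genes in grey. MT-TE takes 27.9% with the reporter and 17.9% without it, while MT-TS2 takes 28.4% and 33.7% and MT-TF 24.5% and 27.6%.

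For ratios between the libraries, counts were scaled with the TMM method of edgeR, and rows with a summed count of at least 100 were taken as measured, 1389 in all. The median log2 ratio of those rows was 0.08, and that of the 1060 measured coding genes was 0.11. Scaling by total counts would raise every ratio by 0.46 on the log2 scale.

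MT-TE had a log2 ratio of 0.74 (0.71 to 0.76), or 0.62 above the median coding gene. MT-TA was at 0.32 (0.04 to 0.60), and at 0.21 (-0.07 to 0.49) relative to the median coding gene, an interval that includes 0. MT-TC was at -0.09 (-0.20 to 0.02), with an interval that includes 0. Relative to the median coding gene MT-TC was at -0.20 (-0.31 to -0.09), an interval that excludes 0. MT-TP was at -0.18 (-0.23 to -0.12). Under total counts MT-TC and MT-TP changed sign, to 0.36 and 0.28 with intervals above 0, and MT-TE came to 1.19. The median of the 4 was 0.11, beside -0.11 for the 10 measured heavy-strand genes. A median of 4 genes moves with each of them: it was -0.091 without either MT-TE or MT-TA, and 0.32 without either MT-TC or MT-TP.

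None of the 4 measured members was at least 2-fold higher or lower with an interval that excluded 0. Over all 1389 measured rows, 2.95% were counted as higher by this rule and 4.1% as lower. These were 41 and 57 rows, which became 240 and 30 under total counts. At 1.5-fold, MT-TE was the only member counted as higher and none was lower, where 14.4% of all measured rows were higher and 10.7% lower. A ratio as high as that of MT-TE was thus not rare: 124 of the 1389 rows had a higher one, and 96 of the 1060 measured coding genes did. Of the 154 rows with a summed count of at least 1000, 13 had a higher ratio than MT-TE. Among the 26 rows with a summed count of at least 10000, where both limits were chosen after the values were seen, only the reporter itself had a higher ratio. The next below MT-TE were the snoRNA host GAS5 at 0.25 and MT-TV, the valine tRNA, at 0.23.

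**Figure D3:**
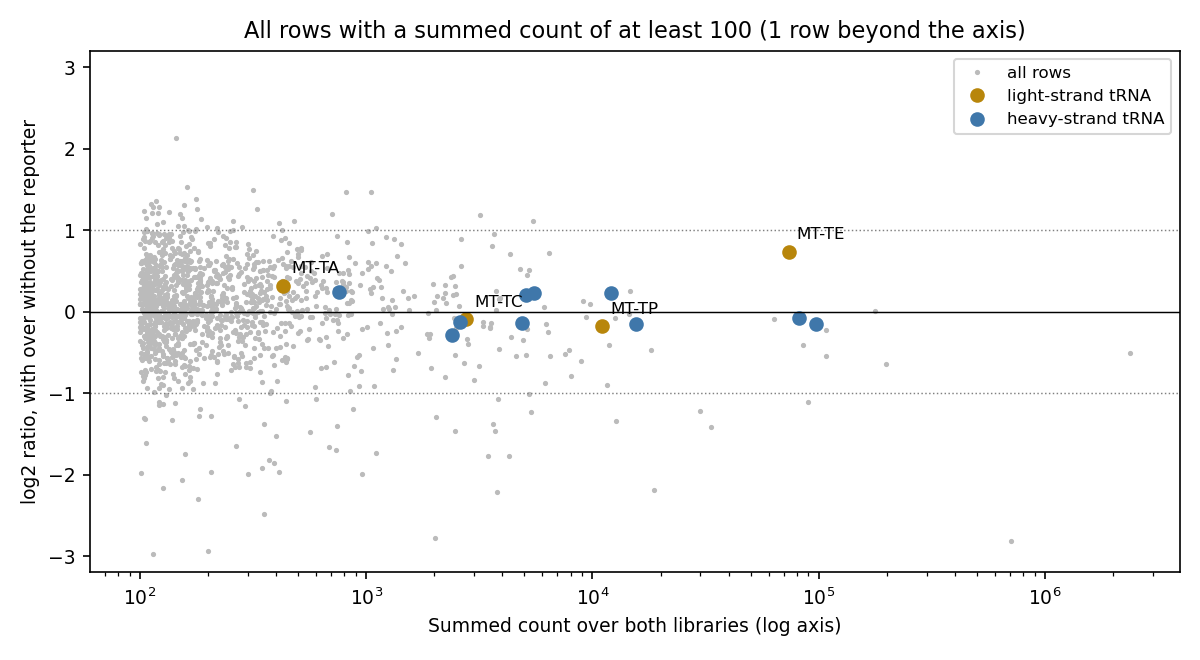
Each point is a row with a summed count of at least 100, placed by that count (log axis) and by its log2 ratio with the reporter over without it, with mitochondrial tRNA genes in colour. MT-TE, at 73556 summed counts, lies at 0.74, while MT-TP and MT-TC lie below 0 and MT-TA at 0.32; 1 row, the reporter, is beyond the axis.

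Setting 1 gene against another within each library removes the scaling. The count ratio of MT-TE to MT-TP was 8.73 against 4.64, which is a log2 difference of 0.91 (0.85 to 0.97; intervals of such differences use the normal approximation on the log scale). MT-TE differed from MT-TC by 0.83 and from MT-TA by 0.42 (0.14 to 0.69), with MT-TE the higher in both. MT-TA was above MT-TP by 0.50 (0.22 to 0.78) and above MT-TC by 0.41 (0.12 to 0.71). MT-TC and MT-TP differed by 0.09 (-0.03 to 0.21), an interval that includes 0. Of the 6 pairs among the 4 measured members, 5 thus differed by more than counting error. The share of other pairs of rows that differ in this way was not computed, here or for the heavy-strand genes below. These counts are therefore not shown to be particular to the members.

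The same comparison was made with each of the 10 measured heavy-strand tRNA genes. MT-TE was above all 10 by more than counting error, from 0.50 above MT-TL2, a leucine tRNA, to 1.03 above MT-TG, the glycine tRNA. MT-TA was above 6 of them, with 4 intervals that include 0. MT-TC was above 1 and below 4, and MT-TP was above none and below 5. Among the heavy-strand genes themselves, under TMM scaling, MT-TL2, MT-TT, MT-TV and MT-TD lay between 0.21 and 0.24, and the other 6 lay between -0.08 for MT-TF and -0.29 for MT-TG. MT-TP and MT-TC fell in the range of those 6. MT-TM and MT-TI, with summed counts of 88 and 99, were under the minimum for a ratio and are not among the 10. Both lay outside the range of the 10. MT-TM was at 0.82 (0.16 to 1.51), an interval that includes the value of MT-TE, and MT-TI was at -0.75 (-1.37 to -0.15). MT-TE is therefore not shown to be above every heavy-strand tRNA gene.

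**Figure D4:**
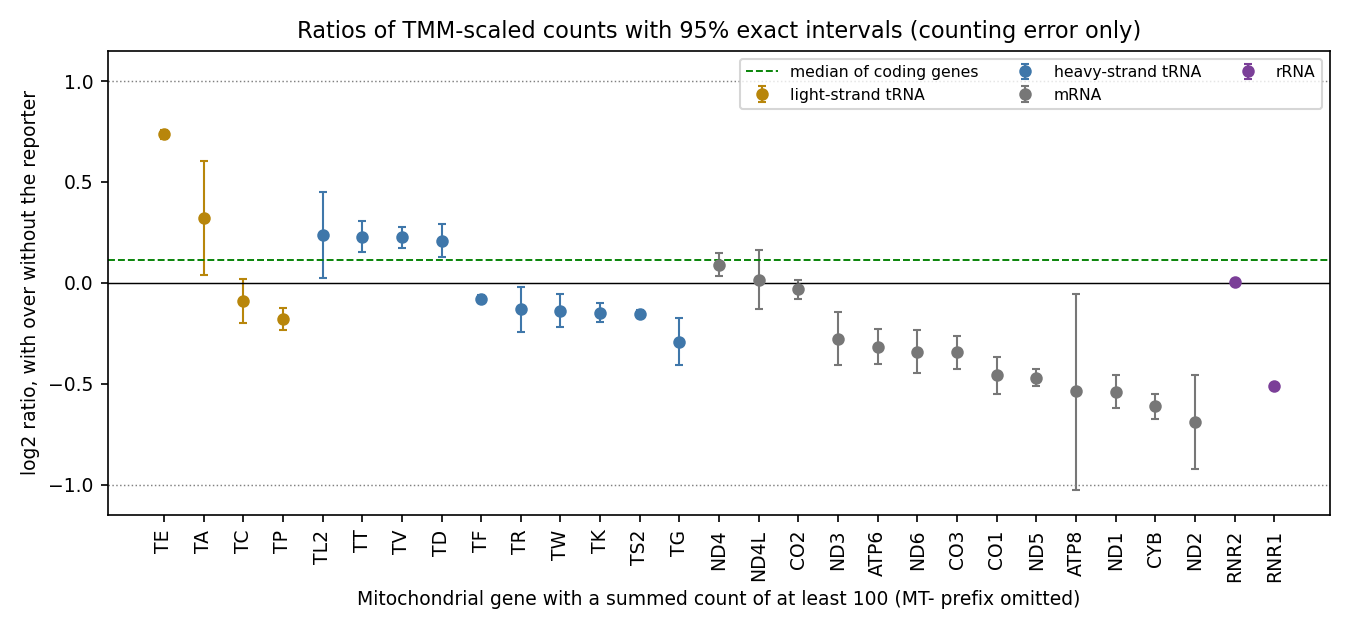
Points give the log2 ratio (with over without the reporter, TMM scaling) of each mitochondrial gene with a summed count of at least 100, and bars are exact 95% intervals for counting error. MT-TE at 0.74 is the highest point, MT-TC and MT-TP sit among the lower heavy-strand tRNAs, and the dashed line is the coding median of 0.11.

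Genes beside MT-TE did not share its ratio. MT-ND6, which encodes a subunit of complex I, lies directly beside MT-TE on the same strand and is copied after it. Its counts were 1290 and 1490, for a log2 ratio of -0.34 (-0.45 to -0.23). The 13 mitochondrial mRNAs had a median of -0.34 and ran from -0.69 to 0.09. The low ratio of MT-ND6 was therefore not particular to a neighbour of MT-TE, and the comparison sets fragments of a tRNA against an mRNA. MT-TE had 36.8 times the counts of MT-ND6 with the reporter and 17.5 times in the other library, a log2 difference of 1.08 (0.97 to 1.19). MT-CYB, the cytochrome b mRNA on the heavy strand at the other side, had 3713 counts and 5174 counts, and MT-TE differed from it by 1.35 (1.28 to 1.41). Per length, MT-TE stood 280 times above MT-ND6 with the reporter and 133 times without it.

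Beside MT-TP, on the other strand, lies MT-TT, the threonine tRNA, which was counted 3091 times and 2407 times. MT-TP lay below MT-TT by 0.41 on the log2 scale (0.31 to 0.50). Around the cluster, MT-ND2 had 255 counts and 375 counts, and MT-TW, the tryptophan tRNA, had 2435 and 2443. MT-CO1 had 1719 and 2153. MT-TC was above MT-CO1 by 0.37 (0.22 to 0.51) and MT-TA by 0.78 (0.49 to 1.07). Among the rRNAs, MT-RNR1 was at -0.51 and MT-RNR2 at 0.01.

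Enzymes that charge the light-strand tRNAs had few counts. EARS2, which charges both the glutamate and the glutamine tRNA, was counted 14 times against 15. QRSL1, GATB and GATC, which turn the glutamate on the glutamine tRNA into glutamine, had 5, 9 and 2 against 10, 14 and 5. AARS2 had 41 against 35, NARS2 13 against 15, CARS2 6 against 5, SARS2 3 against 8 and PARS2 2 against 5. YARS2, for tyrosine, had 11 against 35, a log2 ratio of -1.80 (-2.93 to -0.79). All 10 enzymes were under the summed count of 100, so none entered the counts by the 2-fold rule. Together they had 106 counts against 147, a log2 ratio of -0.60 (-0.98 to -0.23), to which YARS2 contributed most. YARS2 was the only one of them with an interval that excluded 0, so the pooled value does not show a difference of the set.

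Other genes of mitochondrial tRNA biology were sparse as well. Of 23 genes that charge mitochondrial tRNAs or formylate the initiator, 4 were measured and none passed the 2-fold rule, between IARS2 at 0.70 and TARS2 at -0.31, with a median of 0.28. Of 11 tRNA processing genes, 1 was measured, TBRG4 at -0.15. Of 25 modification genes, some of which act on mitochondrial rRNA, 2 were measured. These were NSUN2 at -0.06 and TRMT5, which methylates position G37 of several tRNAs, at -0.70 (-1.16 to -0.24). Of 10 genes of mitochondrial RNA stability and decay, 3 were measured, between LRPPRC at 0.36 and the RNA granule protein GRSF1 at -0.73, with a median of -0.27. None of 15 genes listed for mitochondrial transcription, which include mitochondrial DNA replication genes such as POLG and TWNK, was measured. None of these measured genes passed the 2-fold rule, which 2.83% of measured coding genes passed as higher and 0.566% as lower.

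Summed over all rows, the libraries held 2519301 counts (reporter present) and 3151403 (reporter absent). The reporter had 271843 counts against 399, and TetRS had 30286 against 59723, although both cultures received its plasmid. Of 7 genes seen in HEK293 cells, all had counts. NEFL had 106 and 49, NEFM 56 and 50, VIM 148 and 131, and KRT18 21 and 11, while KRT8 had 3 and 4, PAX2 2 and 4, and LHX1 5 and 7. Markers of other cell types had low counts. Leukocyte markers summed to 5 against 20 (4 of 6 with a count, PTPRC and CD3E at 0), mostly from CORO1A at 1 against 14 and LCP1 at 0 against 6, while CD14 was at 3 against 0 and LYZ at 1 against 0. Fibroblast markers summed to 17 against 55 (5 of 5 with a count), with LUM at 2 against 0. Liver and serum markers summed to 1 against 25 (3 of 4, TTR at 0). Globins summed to 0 against 3 (1 of 5), a ratio whose interval includes 0 on the log2 scale. The intervals of the pooled log2 ratios of the other marker sets excluded 0. Leukocyte markers were at -2.13 (-3.90 to -0.67) and fibroblast markers at -1.83 (-2.70 to -1.02). Liver and serum markers were at -4.78 (-10.1 to -2.17), and the HEK293 genes together went the other way, at 0.28 (0.04 to 0.52). Among the HEK293 genes, only NEFL, at 0.98, had an interval that excluded 0. NEFM was at 0.03, VIM at 0.04 and KRT18 at 0.80, while KRT8, PAX2 and LHX1 were below 0. The pooled value of the HEK293 genes therefore does not show a difference of that set. The part of the TetRS and marker differences in the mitochondrial tRNA counts was not tested.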

How the data were processed

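Counts per gene row, deposited by the authors, were used without normalization. Per the submitters' processing notes, TopHat2 2.0.12 and HTSeq 0.9.1 were listed with the builds GRCh37 and hg19, without role or order; size selection, strand use and multiple matches are not given in the sources used here. RPKM values deposited by the authors equalled the count divided by the listed length and by 1 size per library, which was 1.14 times the count total with the reporter and 0.877 times it without.

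Groups came from the titles. Ratios used TMM sizes from edgeR 4.0.16 in R 4.3.3 over all rows, with exact Clopper-Pearson intervals at 95%, and per-length intervals were exact Poisson ones. With 1 library a group no test was run. A row was counted as higher or lower at 2-fold or more with an interval excluding 0 and a summed count of at least 100. Steps were tested on simulated data with Python 3.11.15, numpy 2.4.6, pandas 2.3.3 and scipy 1.17.1. Alternatives were other scalings, including DESeq2 1.42.0 size factors, other thresholds and pooled counts. The members, lists and rules were chosen with earlier results of these data known. The named genes were all members, their neighbours, the extremes of the heavy strand and of each list, and the charging enzymes; other tRNA genes and GAS5 were added after seeing values. A comparison with amino acid use was not run, because protein sequences were not used here, and tRNA sequences were not used here either. FASTKD4 was counted as TBRG4, its other name.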

Additional observations from a re-analysis of the deposited data

How the results depend on the processing

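The median log2 ratio of the 4 measured light-strand genes, 0.11, was 0.19 under DESeq2 size factors and under deposited RPKM with 0.1 added. It was 0.10 under TMM over coding genes and 0.0023 after subtraction of the coding median. Each of these lay within the mean half-width of the 4 gene intervals from the main value. That limit is not a counting error of the median. The median was 0.57 under total counts, 0.32 with no minimum beyond 1 count and 0.59 from pooled counts. Leaving out MT-TE or MT-TA gave -0.091, and leaving out MT-TC or MT-TP gave 0.32. No member passed the 2-fold rule, but 1, MT-TE, passed it under total counts and 1, also MT-TE, passed at 1.5-fold. Under total counts 240 rows were higher and 30 lower, against 41 and 57. The light-strand median lay 0.22 above that of the heavy strand, a difference that the scalings cannot change, since each shifts all genes alike. It was 0.68 from pooled counts, 0.015 without MT-TE or without MT-TA, and 0.43 without MT-TC or without MT-TP. By summed RPKM the light-strand share of mitochondrial tRNA was 30.8% with the reporter and 21.8% without it. Without MT-TE it was 5.77% and 5.98%, and without MT-TE and MT-TS2 9.51% and 10.1%, in both cases lower with the reporter. The intervals of the last pair, 9.30 to 9.72% and 9.91 to 10.4%, did not overlap. MT-TE ranged from 0.62 to 1.19 over the scalings, with intervals above 0. MT-TA ranged from 0.21 to 0.78, and its interval included 0 (-0.07 to 0.49) relative to the coding median. DESeq2 and the deposited RPKM amount to the same scaling. Leaving out single members was chosen after seeing the data. No paired analysis was possible because each group had 1 library. Depth limits the members at 0 to an upper bound, and MT-TY to 5 counts.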
